A study of Homo sapiens with 14 samples.

Results

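The progesterone receptor (PR) occupied 16103 regions in T47D cells both without added hormone and after 1 h of progesterone, with no region of the RNA polymerase III subunit POLR3A called over them under either treatment. They were chosen from the PR list under progesterone (P4), on chromosomes 1 to 22 and X. A region was kept where it overlapped the PR list under vehicle by 1 bp or more and overlapped neither POLR3A list. They made up 14.4% of the 111515 PR regions under P4, against 25.8% that overlapped a vehicle region whatever POLR3A did and 74.2% that were free of POLR3A whatever the vehicle list did. They are called shared POLR3A-free PR regions here. All 4 lists together held 227513 regions.

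T47D is an established line of luminal breast cancer, positive for oestrogen receptor and PR per the labels. The vehicle was ethanol, P4 is the natural ligand of PR, and both were given for 1 h; the dose is not given in the sources used here. Both groups grew in medium with serum and insulin, so the vehicle group had no added P4 but was not free of serum. Chromatin was precipitated with an antibody to PR or to POLR3A in 3 replicate libraries per antibody and treatment, with 1 pooled input per treatment. Each group of 3 libraries was deposited as 1 peak list, so no value per replicate was used, no difference here could be set against the spread between replicates, and no test was run. The lists hold no expression values, so the cell type could not be checked against its markers. Where nothing else is said, an interval is a 95% Wilson interval, which covers counting error over regions or windows only, not variation between libraries. The 2 lists of an antibody differ in length and the read depth behind them is unknown.

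PR is a nuclear receptor. Bound to ligand, it dimerises and holds the progesterone response element (PRE), an inverted repeat with a spacer of 3 bases that the glucocorticoid and mineralocorticoid receptors also bind. A single arm of the repeat can be held as well. In luminal breast cells much PR binding lies in distal enhancers, where FOXA1, GATA3 and the oestrogen receptor also bind, rather than at gene starts. RNA polymerase III transcribes tRNA, 5S ribosomal RNA and other short RNA genes, and POLR3A is its largest subunit.

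Sequence was examined where the RefSeq promoter table (GRCh38.p14) gives it, from 250 bases before to 50 bases after a gene's start. The P4 summit with 50 bases on each side lay wholly within that table for 162 of the 16103 regions. By the construction of the table these summits all lie just before a gene start, so they are not a sample of the other regions. The 6 with the highest P4 −log10 q are shown first, read along the strand of the gene named, to set the strongest sites beside one another. Capitals mark a PRE palindrome (GNACA, any 3 bases, then TGTNC) or a PRE hexamer (AGAACA on either strand).
LINC03154 window, chr1:8259281-8259381, plus strand: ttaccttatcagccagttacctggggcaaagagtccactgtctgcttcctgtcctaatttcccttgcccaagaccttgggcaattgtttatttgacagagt
LOC124901719 window, chr7:106217310-106217410, minus strand: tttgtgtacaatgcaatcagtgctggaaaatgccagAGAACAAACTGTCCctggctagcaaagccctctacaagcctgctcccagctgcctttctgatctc
ATP13A2 window, chr1:17012054-17012154, minus strand: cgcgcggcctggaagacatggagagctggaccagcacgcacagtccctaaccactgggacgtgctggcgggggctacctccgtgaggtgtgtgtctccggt
ANKRD17 window, chr4:73223041-73223141, minus strand: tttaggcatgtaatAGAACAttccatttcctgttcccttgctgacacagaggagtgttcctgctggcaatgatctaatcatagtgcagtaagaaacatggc
LRRC26 window, chr9:137170014-137170114, minus strand: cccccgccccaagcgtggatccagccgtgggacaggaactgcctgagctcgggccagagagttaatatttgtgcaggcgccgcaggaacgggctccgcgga
DNAJB4 window, chr1:78004797-78004897, plus strand: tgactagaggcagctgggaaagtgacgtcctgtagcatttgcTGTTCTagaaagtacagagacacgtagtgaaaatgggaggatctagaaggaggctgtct

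Of these 6 windows, that of LOC124901719, an uncharacterised locus, held a palindrome with the hexamer running into it. Those of ANKRD17, an ankyrin repeat protein gene, and DNAJB4, a heat shock protein 40 family gene, held the hexamer alone. Those of LINC03154, ATP13A2, a lysosomal transporter gene, and LRRC26, which encodes a subunit of potassium channels, held neither. The P4 −log10 q values of the 6, in the order shown, were 318.3, 293.5, 273.4, 256.8, 211.8 and 203.3. A window can thus lie under a strong PR region and lack these letters.

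The other 7 windows with a palindrome, chosen after the matches were seen, are shown because they carry the motif at weaker PR regions too.
LOC124902403 window, chr10:29946956-29947056, plus strand: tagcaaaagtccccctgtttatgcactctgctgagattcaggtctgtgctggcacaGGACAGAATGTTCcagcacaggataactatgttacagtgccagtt
MAP3K6 window, chr1:27367050-27367150, minus strand: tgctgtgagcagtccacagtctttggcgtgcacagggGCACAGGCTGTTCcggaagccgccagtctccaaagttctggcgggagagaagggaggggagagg
ARHGAP26-AS1 window, chr5:142868920-142869020, minus strand: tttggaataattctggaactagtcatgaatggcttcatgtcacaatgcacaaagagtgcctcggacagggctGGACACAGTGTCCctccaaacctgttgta
DNAAF10 window, chr2:68157575-68157675, minus strand: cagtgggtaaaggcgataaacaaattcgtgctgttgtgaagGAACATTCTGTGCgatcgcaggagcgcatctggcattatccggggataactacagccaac
EEF2K window, chr16:22206028-22206128, plus strand: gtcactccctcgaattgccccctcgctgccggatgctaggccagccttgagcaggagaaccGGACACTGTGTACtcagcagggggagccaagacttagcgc
PPARGC1A window, chr4:24473003-24473103, minus strand: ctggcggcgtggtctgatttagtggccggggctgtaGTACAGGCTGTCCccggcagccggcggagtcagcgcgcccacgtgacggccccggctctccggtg
LOC124903144 window, chr13:29140477-29140577, minus strand: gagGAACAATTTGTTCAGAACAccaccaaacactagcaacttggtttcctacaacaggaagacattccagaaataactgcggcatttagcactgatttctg

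These 7 spanned P4 −log10 q values from 94.2 at LOC124902403 down to 8.92 at PPARGC1A, the gene of a transcriptional coactivator of energy metabolism, and 7.39 at LOC124903144. The palindrome's centre lay 3 bp from the summit at DNAAF10, 7 bp at MAP3K6, a stress kinase gene, 12 bp at LOC124902403 and 17 bp at EEF2K, the kinase of elongation factor 2. At LOC124903144 it lay 41 bp away. At PPARGC1A the palindrome was 8 bp from the P4 summit, and the vehicle summit lay 110 bp from the P4 summit.

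In all, 8 of the 162 windows held a palindrome, 4.94% (interval 2.52 to 9.44), and 31 held the hexamer, 19.1% (13.8 to 25.9). The 2 motifs met in 2 windows and overlapped in 1 of them, so 37 windows, 22.8%, held either. Shares in the other PR regions under P4 were lower. The palindrome was in 5 of 551 windows, 0.907% (0.388 to 2.11), of regions called under P4 alone without POLR3A. It was in 4 of 361, 1.11% (0.432 to 2.81), of regions in both treatments with POLR3A, and in 2 of 487, 0.411% (0.113 to 1.48), of regions under P4 alone with POLR3A. The hexamer was in 9.62% (7.43 to 12.4), 9.70% (7.05 to 13.2) and 5.95% (4.18 to 8.42) of them. The hexamer intervals did not overlap that of the shared POLR3A-free regions, and for the palindrome the interval of shared regions with POLR3A did. Among all 67004 windows of this length cut end to end from the promoter table, 0.116% held the palindrome and 5.27% the hexamer.

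Strength of binding also differed between these sets of windows. The median P4 −log10 q of the windows was 31.8 for the shared POLR3A-free regions, 4.59 for both P4-only sets and 11.7 for the shared regions with POLR3A. Among windows with a −log10 q of at least 30, the palindrome was in 4 of 87 shared POLR3A-free windows, 4.60% (1.80 to 11.2), and in 4 of 118 shared windows with POLR3A, 3.39% (1.33 to 8.39). The hexamer was in 21.8% (14.5 to 31.6) and 16.9% (11.2 to 24.7). At 30 or more the intervals overlapped widely. Below 30, the shared POLR3A-free windows held the palindrome in 4 of 75, 5.33% (2.09 to 12.9), and the shared windows with POLR3A in 0 of 243, which at 3 counts of the total allows up to 1.23%. The hexamer was in 16.0% (9.40 to 25.9) and 6.17% (3.78 to 9.93) of the windows below 30. The part that strength plays in the difference over all windows was not tested.

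**Figure D1:**
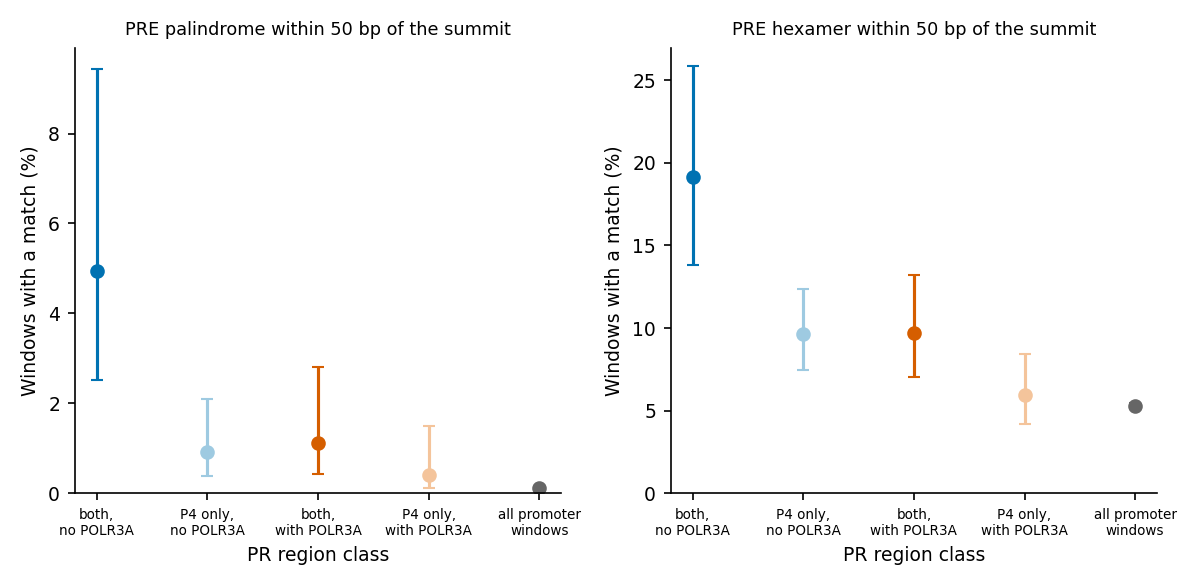
Share of windows of 50 bases on each side of the P4 summit, within the RefSeq promoter table, that hold a PRE palindrome (left) or PRE hexamer (right), for the 4 classes of PR region under P4 and for all windows of the table. Points are shares in percent and bars are 95% Wilson intervals; the shared POLR3A-free regions have the highest share of both, 4.94% and 19.1%.

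Both motifs were densest at the summit. Over all promoter sequence within 25 bp of a summit of the shared POLR3A-free regions, palindrome centres occurred 7 times in 12.6 kb, or 0.556 per kb, and at 100 to 200 bp once in 47.1 kb, or 0.0212 per kb. For the hexamer the densities were 2.54 per kb within 25 bp, 1.53 from 25 to 50 bp, 1.15 from 50 to 100 bp and 0.594 from 100 to 200 bp. The last is close to the 0.582 per kb of the whole promoter table. Within 25 bp the hexamer occurred 1.45 times per kb at shared regions with POLR3A and 1.13 and 0.568 times per kb at P4-only regions without and with POLR3A.

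Motifs of other factors in the same 162 windows were few. The FOXA motif TGTTTAC was in 3.70% (1.71 to 7.84) against 1.11% of all table windows. The AP-1 motif TGANTCA was in 4.32% against 2.72%, the GATA-factor motif AGATAA in 3.70% against 3.69%, and the TFAP2 motif, GCC and GGC spaced by 3 bases, in 4.32% against 8.68%. The ETS motif CCGGAAG, common at promoters of housekeeping genes, was in 1.23% (0.339 to 4.39) of the shared POLR3A-free windows, against 7.76% (5.42 to 11.0) of the shared windows with POLR3A and 3.23% of all. The CTCF motif, CC then AGGNGGC spaced by 3 bases, was in 1.23% against 1.54%. The oestrogen response element, GGTCA and TGACC spaced by 3 bases, was in 0 of 162 windows, which at 3 counts of the total allows a share of up to 1.85%. All motifs were searched on both strands. The median GC content was 53.5% for the shared POLR3A-free windows, 57.4% for the shared windows with POLR3A and 58.4% for all windows, and its part in these shares was not tested.

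The values that chose the regions are given as a description only. The P4 −log10 q of the 16103 regions ran from 1.31 to 452.2 with a median of 30.5 (quartiles 11.4 and 65.8), and the authors' fold enrichment over background had a median of 8.88 (quartiles 5.07 and 14.5). In the vehicle list, their partners had a median −log10 q of 8.61 (quartiles 4.59 and 19.1) and a median fold of 4.83 (3.68 and 7.36). Scores of lists of unequal length and unknown depth do not measure a change, and none is drawn. Across the 16103 regions the order of −log10 q in the 2 lists was alike, with a Spearman's rho of 0.803, and that of fold with 0.809. The points share the antibody and the cell line. The P4 regions were 400 bp wide at the median and their vehicle partners 293 bp. They covered 7.35 Mb of the 41.1 Mb of the PR P4 list.

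Overlap was mostly one to one. A single vehicle region was overlapped by 15927 of the regions and more than 1 by 176. In the other direction they reached 16219 vehicle regions, 41.7% of the 38933 in that list. The median overlap was 267 bp, and 12679 regions overlapped by at least 50% of both partners. At the limit of the rule, 63 regions overlapped vehicle by 20 bp or less and had a median P4 −log10 q of 3.92. Another 63 regions lay up to 20 bp short of a vehicle region and had a median of 3.31. On the POLR3A side, 74 regions lay within 20 bp of a POLR3A region (median 8.01), and 79 were left out for an overlap of 20 bp or less (median 12.4).

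Of the 28783 PR regions in both treatments, 55.9% (55.4 to 56.5) were POLR3A-free, 21.6% had POLR3A under both treatments, 15.8% under P4 alone and 6.64% under vehicle alone. The share varied with rank in the PR P4 list. In the strongest 1%, 290 of 1115 regions, 26.0%, were shared and POLR3A-free, and the other 74.0% were shared with POLR3A. From 1% to 5% the share was 62.3%, from 5% to 10% it was 65.5%, from 10% to 20% it was 38.9%, and from 70% to 100% it was 2.78%. The shared POLR3A-free regions thus made up most of the ranks from 1% to 10% but not of the very top. Just 2 were among the 100 strongest regions and 67 among the 500 strongest.

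**Figure D2:**
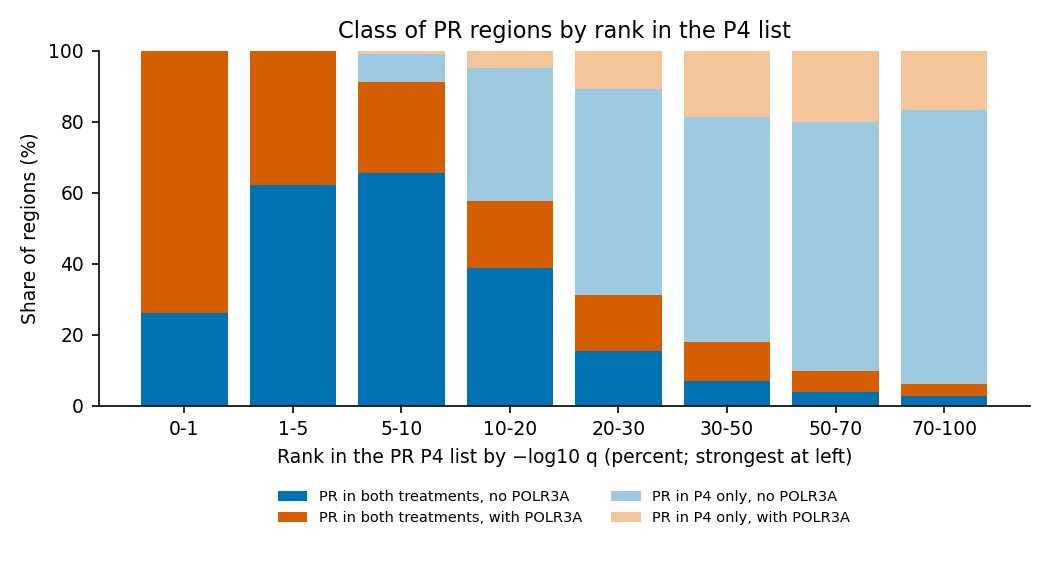
Share of the 4 classes of PR region (stacked, percent) in bins of rank in the PR P4 list by −log10 q, strongest at left. Shared POLR3A-free regions make up 26.0% of the strongest 1%, 65.5% of those ranked 5% to 10% and 2.78% of the weakest bin.

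The strongest region of all lay within ANO6, the gene of a calcium-activated phospholipid scramblase, at chromosome 12 (45292617 to 45293165). It had a P4 −log10 q of 452.2 and a fold of 57.1, with 404.3 and 54.2 under vehicle, and ranked 51 in the P4 list. Its P4 summit was 249 bp downstream of a RefSeq start of ANO6, 76844 bp from the nearer end of the gene span and 9 bp from the vehicle summit. The second lay outside protein-coding gene spans on chromosome 15 (72998077 to 72998759), with 428.1 under P4 and 276.7 under vehicle. It was 53.3 kb from NEO1, a netrin receptor family gene. The third lay in CDC5L, a splicing factor gene, on chromosome 6 (44415432 to 44415974), with 423.1 and 244.5. At each of the 3, the summits of both treatments were within 9 bp of each other.

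At the next 5, summits of both treatments were 6 to 20 bp apart. One on chromosome 1 (182410325 to 182411130; 418.3 under P4 and 394.5 under vehicle) was 10.2 kb upstream of TEDDM1. Another on chromosome 14 (73575011 to 73575517; 413.1 and 272.4) lay in the overlapping spans of HEATR4 and ACOT2, an acyl-CoA thioesterase gene. A region in SLC26A3, a chloride and bicarbonate exchanger gene, on chromosome 7 (107785869 to 107786353) had 411.3 and 362.6. One on chromosome 2 (95016822 to 95017878; 408.4 and 271.6) lay 8.49 kb upstream of MAL, and 1 on chromosome 4 (169079987 to 169080851; 402.1 and 224.5) lay 13.8 kb from SH3RF1. The nearest POLR3A region to these 8 was 207 bp away at the SH3RF1 site and 59.7 kb away at the NEO1 site. Very strong PR regions without POLR3A thus lay both close to and far from POLR3A regions.

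Among the rest, the 4 with the strongest vehicle partners were in CXCL13 on chromosome 4 (vehicle −log10 q 336.7, P4 363.0), 93.0 kb from CDKAL1 on chromosome 6 (334.9 and 389.9), in CATSPERB on chromosome 14 (327.7 and 375.6) and 76.2 kb from SLC44A3 on chromosome 1 (318.4 and 360.8). CXCL13 encodes a B-cell chemokine. The weakest region, in SFXN3 on chromosome 10 (101031720 to 101031933), had 1.31 under P4 and 3.02 under vehicle, with summits 483 bp apart. The contrast in summit distance between the strongest and the weakest regions held across the whole set.

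Summits of both treatments lay close together. The median distance was 26 bp (quartiles 11 and 56), with 48.8% (48.0 to 49.6) within 25 bp and 86.5% (86.0 to 87.0) within 100 bp. For the 12680 shared regions with POLR3A it was 36 bp (13 and 118), with 41.1% and 72.3% within those limits. Distance fell with strength: for shared POLR3A-free regions the median was 97 bp at P4 −log10 q under 5, 31 bp from 10 to 30, 21 bp from 30 to 100 and 13 bp at 100 or more. For shared regions with POLR3A it was 110, 32, 23 and 12 bp in the same bins, so at equal strength the medians were within 2 bp of each other from 10 upward. The share within 50 bp still differed, 69.6% without and 62.9% with POLR3A from 10 to 30, and 84.9% and 76.3% from 30 to 100. Regions with POLR3A were also wider, with a median of 549 bp against 400 bp.

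**Figure D3:**
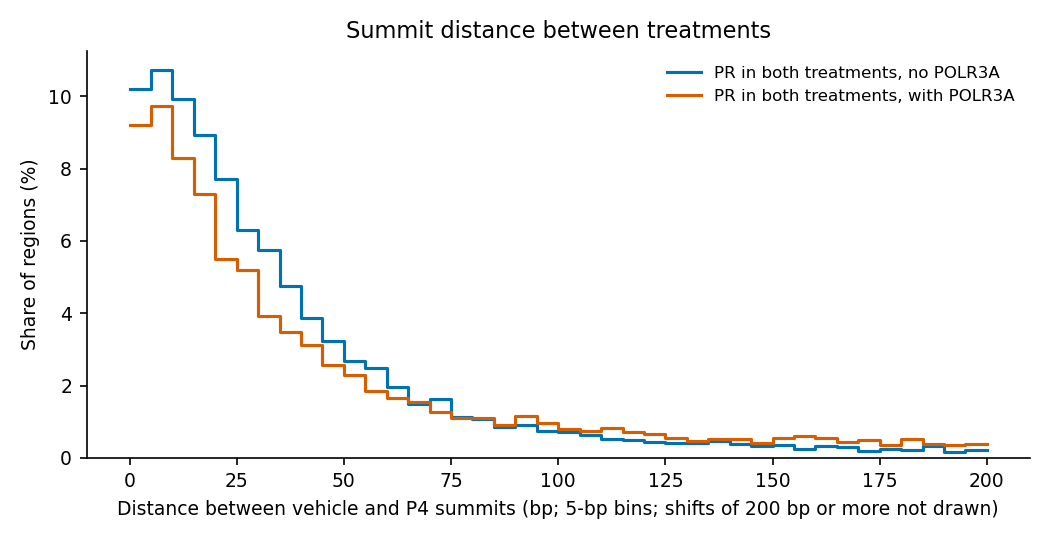
Distance between vehicle and P4 summits in bp (5-bp bins) for PR regions in both treatments, without and with POLR3A, as percent of each class. Both curves are highest below 15 bp, and the tail beyond 100 bp is heavier with POLR3A.

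Most of the shared POLR3A-free regions lay away from gene ends, though many lay inside genes. Within 1 kb of either end of a protein-coding gene were 1149, 7.14% (6.75 to 7.54), against 11.3% of the whole PR P4 list. P4-only regions without POLR3A had 7.91% (7.71 to 8.12), shared regions with POLR3A 18.6% (18.0 to 19.3) and P4-only regions with POLR3A 23.5% (22.9 to 24.2). The shares were thus lower in both sets without POLR3A than in both sets with it. POLR3A overlap sets these classes, so the shares depend on which POLR3A regions count. With those under a −log10 q of 5 ignored, the share of the shared POLR3A-free regions was 10.7%. Where no POLR3A region was allowed within 1 kb it was 5.38%. By the starts in the promoter table, which leave out chromosome 8, 820 of 15294 regions or 5.36% were within 1 kb, against 16.4% of the shared regions with POLR3A. The summit was inside a protein-coding gene's span for 53.4% (52.6 to 54.2), against 52.8% of the whole list. Exons and introns were not told apart. Of all 16103 regions, 68.5% lay over 10 kb from any coding gene end and 19.3% over 100 kb.

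Between shared regions without and with POLR3A, the intervals did not overlap in any of the 5 strength bins. At P4 −log10 q from 30 to 100, 5.93% (5.35 to 6.57) of shared POLR3A-free regions were near a gene end, against 5.86% (4.57 to 7.49) of P4-only regions without POLR3A and 15.4% (13.9 to 16.9) of shared regions with POLR3A. At 100 or more it was 5.14% (4.31 to 6.12) against 9.59% (8.43 to 10.9) of the shared regions with POLR3A. Below 5 it was 14.9% (13.4 to 16.6) against 26.9% (25.2 to 28.6). P4-only regions without POLR3A had 8.44% (8.17 to 8.71) below 5, less than the shared ones. Among shared POLR3A-free regions the share near gene ends was thus higher in the weakest bin than in the strongest, whereas the share inside a coding gene's span was 48.6% below 5 and 58.2% at 100 or more.

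**Figure D4:**
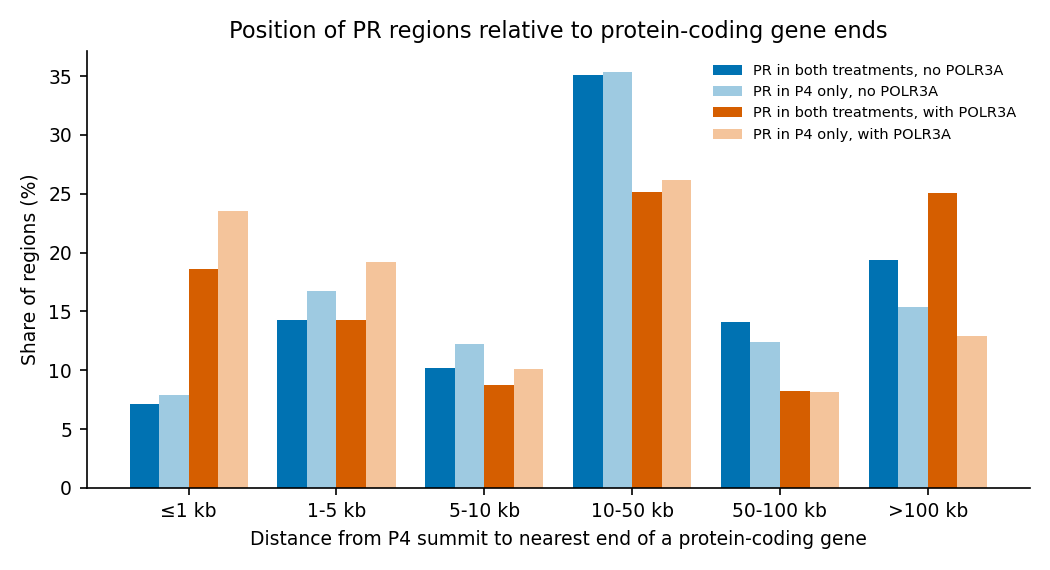
Share of regions (percent) by distance from the P4 summit to the nearest end of a protein-coding gene, for the 4 classes of PR region under P4. Regions without POLR3A, whether shared or P4-only, have 7.14% and 7.91% within 1 kb, and those with POLR3A have 18.6% and 23.5%.

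The 2 strongest regions near a gene end besides that in HEATR4 and ACOT2 were in TRAK1, a mitochondrial transport adaptor gene, on chromosome 3 (42224737 to 42225508; P4 −log10 q 384.3, vehicle 253.6) and 179 bp from LOC124900418 on chromosome 19 (15836805 to 15837777; 323.6 and 102.8). Of the genes that RNA polymerase III transcribes, tRNA genes were almost absent: 6 of the 16103 summits, 0.0373% (0.0171 to 0.0813), lay within 1 kb of a tRNA gene's midpoint, none nearer than 512.5 bp. For P4-only regions without POLR3A it was 0.0270%, and for shared regions with POLR3A 0.489% (0.382 to 0.626). The rule leaves out what POLR3A overlaps, so these shares are not independent of the choice.

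The distance to POLR3A regions depended on which of them were counted. The gap to the nearest POLR3A region of either list had a median of 7820 bp (quartiles 1510.5 and 37289 bp) and was at most 500 bp for 1905 regions, 11.8% (11.3 to 12.3). With POLR3A regions under a −log10 q of 5 ignored, which also makes the set 22820 regions, the median gap was 49283 bp. For P4-only regions without POLR3A the median was 6271 bp and the share within 500 bp 10.8% (10.5 to 11.0). The part of the shared regions that was POLR3A-free differed between chromosomes, from 42.5% on chromosome 11 and 45.4% on chromosome 20 to 72.7% on chromosome 18 and 78.2% on chromosome 2. As a share of the PR P4 list they ranged from 9.96% on chromosome 20 to 22.1% on chromosome 2.

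Regions were spread widely, with a median of 54.2 kb between neighbours, yet 34.7% had another within 10 kb. Runs of 5 or more with gaps up to 10 kb numbered 48 and held 260 regions. The longest run had 10 regions over 43.2 kb in HIVEP3, a zinc finger gene, on chromosome 1 (41836319 to 41879484). The next had 8 regions over 47.2 kb at IL6ST on chromosome 5 (55992881 to 56040056). IL6ST encodes gp130, the signalling subunit of the interleukin 6 family of receptors.

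By gene span, KCNMA1, the gene of the large-conductance calcium-activated potassium channel, and STARD13, a RhoGAP gene, held the most, 25 each. KCNMA1 spans 768.2 kb and had 165 PR regions under P4 in all, STARD13 spans 573.7 kb and had 54. Counts at single genes, here and below, stand beside the 14.4% of the whole PR P4 list that was shared and POLR3A-free. The share at KCNMA1 was close to that. IGF1R, the receptor of insulin-like growth factors, held 23 of its 77 in 316.0 kb. HIVEP3 held 19 of 57, ZFHX3, a zinc finger homeobox gene, 19 of 50, and PLCE1, a phospholipase gene, 15 of 49. These genes are long, and per 100 kb others came first. Only coding genes with 5 or more such regions in the span were ranked this way. Among them ZNF217, a zinc finger gene of chromosome 20, led with 5 of its 14 PR regions, or 16.3 per 100 kb. TRAF5, a signalling adaptor gene, had 7 of 11 (14.5 per 100 kb), TRIM55 8 of 15 (12.9) and MIDEAS 8 of 36 (10.6). PAK4 had 6 of 16 (10.5) and TNIP1, an inhibitor of NF-κB signalling, 6 of 12 (10.4). At ZNF217 the strongest region (53597166 to 53597586) had a P4 −log10 q of 220.6 and a vehicle value of 55.5.

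Genes listed as targets of PR were looked at next. Of 20 listed target genes, 19 had a shared POLR3A-free region within the gene or 50 kb of it, against 59.0% of all 19821 protein-coding genes and 65.0% of those of 50 kb or longer. The exception was DUSP1, a phosphatase gene. The median count was 4 regions per target against 1 over all coding genes. The targets also had more PR regions of any kind, a median of 18.5 under P4 against 8. The list includes SLC25A17 (4 of 15), which is among the strongest PR loci of these data. It was drawn up with earlier results of these data known, so the count is a description. Inside the gene span the count was 8 of 20, against 23.2% of all coding genes.

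GREB1, an oestrogen- and progestin-induced growth regulator, had the most, 12 shared POLR3A-free regions among 59 PR regions under P4. The strongest was inside the gene on chromosome 2 (11508276 to 11508858), with a P4 −log10 q of 316.5 and a vehicle value of 254.0. FKBP5, the co-chaperone that dampens steroid receptor activity, had 8 of 49, and its strongest, inside the gene on chromosome 6 (35601882 to 35602279), had 214.2 and 145.9. ZBTB16, a zinc finger repressor gene, also had 8 of 50, and its strongest, 41.7 kb outside the gene, had 36.7 and 5.26. Equal counts of regions at FKBP5 and ZBTB16 thus went with unlike strengths.

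KLF9, a Krüppel-like factor induced by steroids, had 9 PR regions, of which 6 were shared and none overlapped POLR3A, led by 1 that lay 4.61 kb upstream on chromosome 9 (70418912 to 70419650; 123.0 and 58.3). HSD11B2, the cortisol-inactivating dehydrogenase, had 5 of 24, with the strongest 5.98 kb from the gene on chromosome 16 (67423623 to 67424015; 262.2 and 154.8). EHF, an epithelial ETS factor, had 5 of 36, and MUC1, an epithelial mucin, had 5 of 39, both close to the 14.4% of the whole list. TNFSF11 (RANKL), the paracrine mediator of progesterone in the breast, had 3 of 5 and its strongest was 158122 bp from any POLR3A region. It lay 8.88 kb upstream on chromosome 13 (42553131 to 42553975; 50.6 and 16.8), with summits 562 bp apart. WNT4, another paracrine mediator, had 1 of 6.

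**Figure D5:**
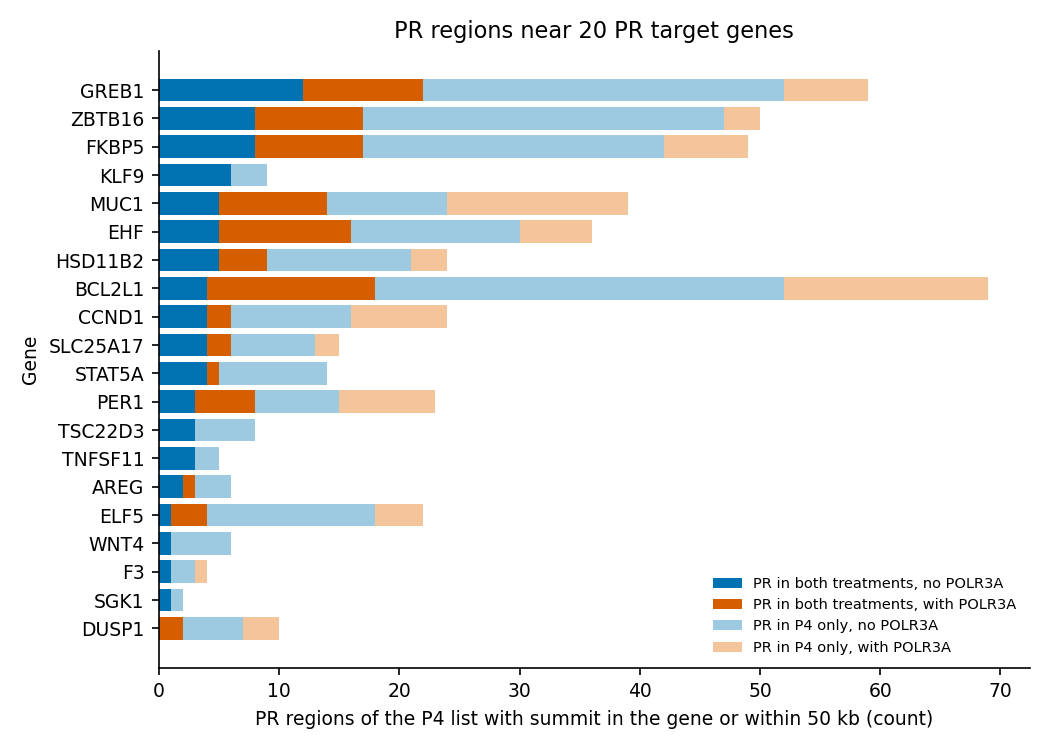
Number of PR regions under P4 with the summit in the gene or within 50 kb, for 20 genes listed as PR targets, stacked by class. GREB1 has 12 shared POLR3A-free regions of 59, KLF9 has 6 of 9 and DUSP1 has 0 of 10.

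The transcription factors of luminal breast cells had such regions in 12 of 14 cases, 85.7% against the 59.0% of all coding genes, with a median of 25 PR regions of any kind against 8. ESR1, the oestrogen receptor α gene, had 15 shared POLR3A-free regions among 28 PR regions, of which 1 had POLR3A, and MYB, the gene of a proto-oncogenic factor, had 3 of 11, none with POLR3A. The strongest, inside ESR1 on chromosome 6 (152002005 to 152002738), had a P4 −log10 q of 229.8 and a vehicle value of 98.4, with the nearest POLR3A region 238004 bp away. GRHL2, an epithelial factor gene, had 13 of 96, TRPS1, a GATA-type repressor gene, 8 of 37, and GATA3 5 of 26. The share at GRHL2 was close to the 14.4% of the whole PR P4 list, and those at TRPS1 and GATA3 were above it. FOXA1, the gene of the pioneer factor, had 4 of 12, the strongest 3.41 kb from it on chromosome 14 (37585985 to 37586310; 106.4 and 22.9). PGR, the gene of PR itself, had 2 of 13, the stronger with 26.6 and 5.95.

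Among the other lists, 22 of 24 further nuclear receptor genes had one, 91.7% against 59.0%, with a median of 18.5 PR regions of any kind against 8. They were led by NR5A2 (8 of 22), RXRA (7 of 54) and THRB (6 of 21), of which RXRA was below the 14.4% of the whole PR P4 list. The strongest near this family was at NR2F2, the COUP-TFII gene, on chromosome 15 (96335877 to 96336584; 239.9 and 91.2), 2.55 kb downstream of its start. RARB, a retinoic acid receptor gene, had 4 shared POLR3A-free regions, and all of its 22 PR regions were free of POLR3A. All 10 steroid receptor coregulator genes had one, against 59.0% of all coding genes and 65.0% of those of 50 kb or longer. Their median length was 155.3 kb, against 24.5 kb over all coding genes, and their median count of PR regions of any kind 10, against 8. CREBBP, a histone acetyltransferase gene, had 7 of 26 with no POLR3A at any, and CITED2 had 4 of 6. The strongest at CITED2 lay 2.25 kb upstream of it on chromosome 6 (139376647 to 139377176; 314.7 and 142.3).

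Growth factor receptors and ligands had one in 11 of 13 cases, the exceptions being INSR and NRG1. This was 84.6%, against 59.0% of all coding genes and 65.0% of the long ones, with a median length of 120.1 kb. The median over these 13 genes was 6 PR regions of any kind, below the 8 over all coding genes. IGF1R had 23 of 82, all inside the gene, with the strongest on chromosome 15 (98914594 to 98914967; 215.8 and 68.5). PRLR, the prolactin receptor gene, had 15 of 84, with the strongest on chromosome 5 (35205474 to 35206026; 261.2 under P4 and 284.4 under vehicle). EREG, the epiregulin gene, had 1 of 2, inside the gene, with 182.0 and 68.1. Cell cycle genes had one in 10 of 12 cases, 83.3% against 59.0%, the exceptions being CCNE2 and CDKN2B. The median over these 12 genes was 13 PR regions of any kind, against 8 over all coding genes. CDK6, a cyclin-dependent kinase gene, had 5 of 13 inside the gene, including the strongest of any listed gene (chromosome 7, 92606936 to 92607391; 393.2 and 236.0). CCND1, the cyclin D1 gene, had 4 of 24, none inside it, the strongest with 26.9 and 5.31.

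Of 15 genes shared with the glucocorticoid response, 13 had one, 86.7% against 59.0% of all coding genes. Their median was 9 PR regions of any kind, against 8. NFKBIA, the gene of the NF-κB inhibitor IκBα, had 6 of 28, and MT2A, a metallothionein gene, 5 of 13. TSC22D3 (GILZ), an anti-inflammatory mediator, had 3 of 8, and its strongest region (X chromosome, 107684822 to 107685361; 74.99 and 30.4) lay 3655937 bp from any POLR3A region. The genes of RNA polymerase III and its factors had one in 14 of 20 cases, 70.0% against 59.0% of all coding genes. The median over these 20 genes was 11.5 PR regions of any kind, against 8. BRF2, which directs the polymerase to U6-type promoters, had 8 of 41, the strongest 6.33 kb from the gene (348.5 and 162.4). BRF1, the gene of a TFIIIB subunit, had 4 of 33, and POLR3A itself had 1 of 32, 10.6 kb outside the gene (21.1 and 2.94). The shares at BRF1 and POLR3A were below the 14.4% of the whole PR P4 list.

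Gene starts were looked at last. Of 118 listed genes, 94 had a start in the promoter table, and 12 of them, 12.8%, had a shared POLR3A-free region within 1 kb of it, against 5.40% of the 15812 coding genes with a start there. The strongest was 512 bp downstream of the start of EGFR, the epidermal growth factor receptor gene, on chromosome 7 (55019343 to 55019721; 183.1 and 92.5). Next was PER1, a clock gene that steroids induce, 489 bp downstream on chromosome 17 (8151607 to 8152181; 98.5 and 68.9). IGF1 followed, at -299 bp from the start, on chromosome 12 (102481552 to 102482272; 89.7 and 75.03). Summits of both treatments were 4, 4 and 2 bp apart at these starts. The others were BRF1 (63.4 and 2.72), MT1X (48.2 and 15.8), CDKN1A, a cell cycle inhibitor (41.9 and 16.7), MT2A (26.6 and 12.1), GATA3 (25.7 and 12.2), CCND3 (9.86 and 4.32), NR4A1 (7.76 and 1.71), THRB (3.96 and 3.35) and FGFR2 (2.09 and 1.88). Among these others, summits were 331 bp apart at BRF1, 296 bp at CCND3 and 230 bp at NR4A1. At the rest they were 2 to 76 bp apart.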

How the data were processed

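The labels list 14 libraries of T47D cells: 3 per antibody (PR or POLR3A) and treatment, and 1 pooled input per treatment. The authors deposited 4 peak lists, 1 per antibody and treatment. The submitters' processing notes name cutadapt, Bowtie2, MACS2 and hg38; versions, parameters, control and pooling are not given in the sources used here. The deposited fold enrichment is a ratio over background, the deposited −log10 q is the authors' own, and the deposited score is 10 times it. No counts were used, so depth is unknown, and a deeper library gives a longer list and larger −log10 q.

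Regions on chromosomes 1 to 22 and X were compared at an overlap of 1 bp. Genes came from the RefSeq table of GRCh38.p14; 58419 of 59098 were kept, leaving out rows after the start positions of a chromosome fall back, taken as genes of alternate sequences. A region's distance is that of its P4 summit. A genome sequence was not used here, so the planned motif search ran on 34961 promoter windows. Where several vehicle regions overlapped, the longest overlap was the partner. Python 3.11.15, pandas 2.3.3 and scipy 1.17.1 were used. The code was checked on 2400 simulated regions and 200 planted motifs, with 0 errors.

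Regions named are the 8 with the highest P4 −log10 q, 4 by vehicle partner, 3 near gene ends and the weakest. Sequences are those of the strongest regions with promoter sequence, since the strongest of all have none in the table. Genes named are up to 6 per list by count, the leaders by count, and the leaders per 100 kb among genes with 5 or more regions in the span. Others were chosen after their values were seen. The members, gene lists and alternatives were chosen with earlier results of these data known. Some listed genes are counted but not reported by name here.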

Additional observations from a re-analysis of the deposited data

Results flagged for a closer look

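The regions described lie on chromosomes 1 to 22 and X. On unplaced and unlocalised sequences, which the comparisons left out, 505 of 947 PR regions under P4 overlapped a PR region under vehicle. This was 53.3%, against 25.8% on the chromosomes used. Of the 947, 59 met the same rule with no POLR3A region, 6.23% against 14.4%. They are listed here as signal outside the main comparison, with no test. On chromosome Y, 1 of 72 regions met the rule.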

How the results depend on the processing

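The alternatives were both PR lists at −log10 q of at least 5 or 10, reciprocal overlap of 50%, the P4 list cut to the vehicle list's length, POLR3A rows at −log10 q of at least 5 alone, and no POLR3A region within 1 kb. The number of regions stayed within 1.5 times of 16103 except at −log10 q of 10, with 6903. It was 22820 with weak POLR3A rows ignored. In the order above, the share within 1 kb of a gene end was 5.29%, 5.00%, 6.21%, 5.79%, 10.7% and 5.38%. With P4 −log10 q of at least 30 it was 5.71%, with starts in place of ends 5.36%, and at 5 kb and 500 bp it was 21.4% and 3.71%. In the same order, the median summit distance was 20, 17, 23, 22, 30 and 25 bp, and the median gap to POLR3A was 10756, 11551, 9885, 10285, 49283 and 13811 bp. The cause of these moves was not tested, except that the last 2 gap values follow from which POLR3A rows count. The palindrome share stayed between 2.54% and 6.74% under 10 alternatives, was 27.2% with 1 mismatch and is 19.1% for the hexamer. Of the 20 targets, 8 had a region in the span alone, and 14 to 20 under the others. The settings by start, by P4 −log10 q of 30 and by hexamer were chosen with the data in view. No paired analysis was possible because the 3 replicates of a group share 1 list, so no replicate could be left out either.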

Other observations

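Micro-RNA genes near the shared POLR3A-free PR regions were counted after the data had been seen. Of 1558 hairpins in the RefSeq table, 8 were overlapped by such a region and 47 had one within 1 kb. By P4 summit, 0.248% of the shared POLR3A-free regions had a micro-RNA gene end within 1 kb. This was close to the 0.258% of P4-only regions without POLR3A. It was below the 0.489% of shared and 0.604% of P4-only regions with POLR3A, so the genes named next are examples only. The strongest of the overlapping regions was at MIR6079 on chromosome 1 (P4 −log10 q 117.2, vehicle 35.0). The region over MIR376A1 on chromosome 14 (101040794 to 101041155; 89.7 and 37.6) lies in the imprinted cluster of that chromosome, with MIR376B, MIR376A2, MIR654 and MIR300 also within 1 kb of it. MIR375, known for its level in luminal breast cancer and pancreatic islets, had a region 152 bp away on chromosome 2 (219001861 to 219002166; 55.1 and 7.35). MIRLET7B, a let-7 family gene, had one 202 bp away on chromosome 22 (25.9 and 4.67).

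Long noncoding RNA genes had an end within 1 kb of 5.10% (95% Wilson interval 4.78 to 5.46) of the shared POLR3A-free regions, close to the 4.82% (4.66 to 4.98) of P4-only regions without POLR3A and below the 7.96% (7.50 to 8.44) of shared regions with POLR3A. Small nuclear RNA genes had an end within 1 kb of 1 of the 16103 regions (0.00621%) and 66 of the 12680 shared regions with POLR3A (0.521%). For P4-only regions without POLR3A it was 14 of 66671 (0.0210%). Since the rule leaves out regions that POLR3A overlaps, these shares are not independent of it.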
